A study of Homo sapiens with 12 samples.

Results

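The 9 genes described here encode amino acid transporters of the plasma membrane and the heavy chain that carries some of them there: SLC7A5, SLC3A2, SLC1A5, SLC1A4, SLC7A11, SLC7A1, SLC7A6, SLC38A1 and SLC38A2. They were chosen by name, with no measured value in the rule but with earlier results of these data known, from the 57353 gene names of the count table. Of those names 30572 had a count, 12998 passed a filter on low counts, and all 9 transporters were among these. The RNA came from MOLM-13, an established human acute myeloid leukemia line that carries the FLT3-ITD mutation of the receptor tyrosine kinase FLT3 and that the labels list as wild type, with no added genetic change. Cells were kept for 15 hr with 3 nM quizartinib, a FLT3 inhibitor, or with DMSO as vehicle, either in plain RPMI or in hBMSC-CM, which is medium conditioned by the human bone marrow stromal line HS-5 and mixed with RPMI. The 4 groups, vehicle in RPMI, quizartinib in RPMI, vehicle in hBMSC-CM and quizartinib in hBMSC-CM, held 3 RNA-seq libraries each. Conditioned medium brings what stromal cells secrete but no stromal cell contact, and a single line stands for the leukemia. The paper states that nutrients and metabolites in hBMSC-CM could be at other levels than in RPMI. The part of this in the differences between media was not tested. The labels do not say that replicates were separate cultures, so p-values measure only the spread between these libraries.

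Cells take up essential amino acids through transporters that mostly work as exchangers. SLC7A5 (LAT1) imports leucine and other large neutral amino acids in exchange for glutamine and reaches the membrane only as a heterodimer with the glycoprotein SLC3A2 (CD98 heavy chain). SLC7A6 and SLC7A11 are other light chains of the same heavy chain, SLC1A5 (ASCT2) and SLC38A1 carry glutamine, and leucine that enters this way is a signal for the growth kinase mTORC1.

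CPM are counts scaled to a library of one fixed size, with TMM factors except in the limit given next, which used library totals alone. Library totals ran from 19966546 to 31546104 counts, so that a count of 0 allowed at most 0.0951 to 0.150 CPM. That limit is 3 counts per library and covers counting error only. The lowest count of any of the 9 genes in a library was 402, for SLC7A1 with quizartinib in RPMI. Myeloid genes, with 7 of 8 listed markers past the filter, summed to more with the drug. Their sum per library was 933 to 978 CPM with vehicle and 1608 to 1640 CPM with quizartinib in RPMI. In hBMSC-CM it was 1081 to 1118 CPM with vehicle and 1832 to 1977 CPM with quizartinib. Erythroid and lymphoid markers stayed at or below 0.491 CPM. Of 9 stromal markers, 5 were at 0 in each group. The sum of the stromal markers lay between 4.81 and 5.67 CPM with quizartinib in RPMI, mostly COL1A1, and between 1.68 and 2.02 CPM with quizartinib in hBMSC-CM, against at most 0.924 CPM with vehicle. Counts of mitochondrial genes took 0.726% (vehicle, RPMI), 1.05% (quizartinib, RPMI), 0.511% (vehicle, hBMSC-CM) and 0.856% (quizartinib, hBMSC-CM) of the counts on average. The part of the myeloid, stromal or mitochondrial differences in those below was not tested. In hBMSC-CM the mitochondrial share of replicate 1 differed from that of the other replicates, at 0.613% against 0.462% and 0.458% with vehicle and 0.683% against 0.947% and 0.939% with quizartinib, and leaving both libraries out ended no call for the 9 genes. By the distance between counts, replicate 3 of vehicle and replicate 1 of quizartinib lay farthest from their group in this medium, and leaving out either ended no call.

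Upon FLT3 inhibition in RPMI, 8 of the 9 transporters fell and SLC7A11 did not pass the test. The median log2 fold change of the 9 genes was -1.65, against 0.02 for all 12998 genes tested. Quizartinib changed most of the transcriptome in this medium, with 79.3% of genes called in either direction, 39.2% lower and 40.1% higher, at an adjusted p under 0.05 (edgeR quasi-likelihood, Benjamini-Hochberg over all genes tested). For 40.1% of genes every drug library lay below every vehicle library, as it did for the 8 transporters. Values are shares of the counted RNA, and in bulk samples fewer cells with a transcript and less of it per cell cannot be told apart. The paper reports lower RNA yields with quizartinib in its polysome experiment. Amounts per cell were not measured here, so a share that held or rose need not mean an amount that did.

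The LAT1 light chain SLC7A5 had 323, 314 and 327 CPM in the vehicle libraries in RPMI and 29.1, 29.7 and 32.6 CPM with quizartinib. The groups lay far apart, at 10.6-fold lower with the drug (log2 fold change -3.40, SE 0.0538, adjusted p = 2.24e-21). By size of the change it ranked 60 of the 12998 genes, and SLC7A1 ranked 43. The heavy chain SLC3A2 went from 174, 176 and 178 CPM to 52.8, 55.9 and 59.9 CPM. It was 3.13-fold lower (log2 fold change -1.65, SE 0.0458, adjusted p = 4.69e-18), a smaller fall than that of its main partner.

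The other light chains among the 9 genes moved little. SLC7A6 (y+LAT2), which exchanges cationic for neutral amino acids, had 77.4, 76.6 and 79.7 CPM with vehicle and 68.5, 64.1 and 65.5 CPM with quizartinib, groups that did not overlap but differed by only 1.18-fold (log2 fold change -0.24, adjusted p = 8.06e-05). Its size depended on the scaling, at -0.14 with upper-quartile factors. SLC7A6 shares 3372 exonic bases with SLC7A6OS on the opposite strand, whose level rose from 48.0 to 61.2 CPM (log2 fold change 0.35, adjusted p = 3.05e-06), and the strand setting of the counting is not given in the sources used here, so reads of the pair cannot be told apart. SLC7A11 (xCT), the cystine and glutamate exchanger that feeds glutathione synthesis, had 47.0, 49.2 and 48.2 CPM with vehicle and 56.0, 49.6 and 46.4 CPM with quizartinib. These groups overlapped (log2 fold change 0.08, 95% interval -0.04 to 0.20, adjusted p = 0.231). The call for SLC7A11 turned on the scaling and on 1 library: it was called higher with upper-quartile factors (0.18, adjusted p = 0.00837), with library size only (0.17, adjusted p = 0.0153) and without replicate 3 of quizartinib in RPMI (0.14, adjusted p = 0.0346).

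SLC7A1 (CAT1), the main importer of arginine and lysine, fell the most of the 9 genes. Vehicle libraries in RPMI held 222, 207 and 219.8 CPM, and quizartinib libraries 17.2, 17.6 and 19.6 CPM. This was 11.98-fold lower (log2 fold change -3.58, SE 0.0688, adjusted p = 1.93e-20).

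The exchangers of small neutral amino acids fell as well. SLC1A5, which carries glutamine, serine and alanine, had 307, 286 and 295 CPM with vehicle and 65.7, 77.2 and 75.9 CPM with quizartinib, 4.06-fold lower (log2 fold change -2.02, SE 0.0581, adjusted p = 7.86e-18). SLC1A4 (ASCT1), a serine, alanine and cysteine exchanger, went from 182, 183 and 178 CPM to 76.2, 81.7 and 80.5 CPM, 2.28-fold lower (log2 fold change -1.19, SE 0.0411, adjusted p = 1.58e-16). Neither pair of groups overlapped.

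The sodium-coupled transporters differed from each other. SLC38A1 (SNAT1), which concentrates glutamine in the cell, had 246, 249 and 246 CPM with vehicle and 79.0, 79.2 and 76.4 CPM with quizartinib, 3.16-fold lower (log2 fold change -1.66, adjusted p = 2.21e-18). SLC38A2 (SNAT2), known for its induction when amino acids run short, held 298, 299 and 307 CPM with vehicle against 239, 240.2 and 232 CPM with quizartinib, a 1.27-fold difference (log2 fold change -0.35, adjusted p = 8.84e-08). The groups of both genes lay apart, and the fall of SLC38A2 was small beside that of SLC38A1, its neighbour on chromosome 12.

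**Figure D1:**
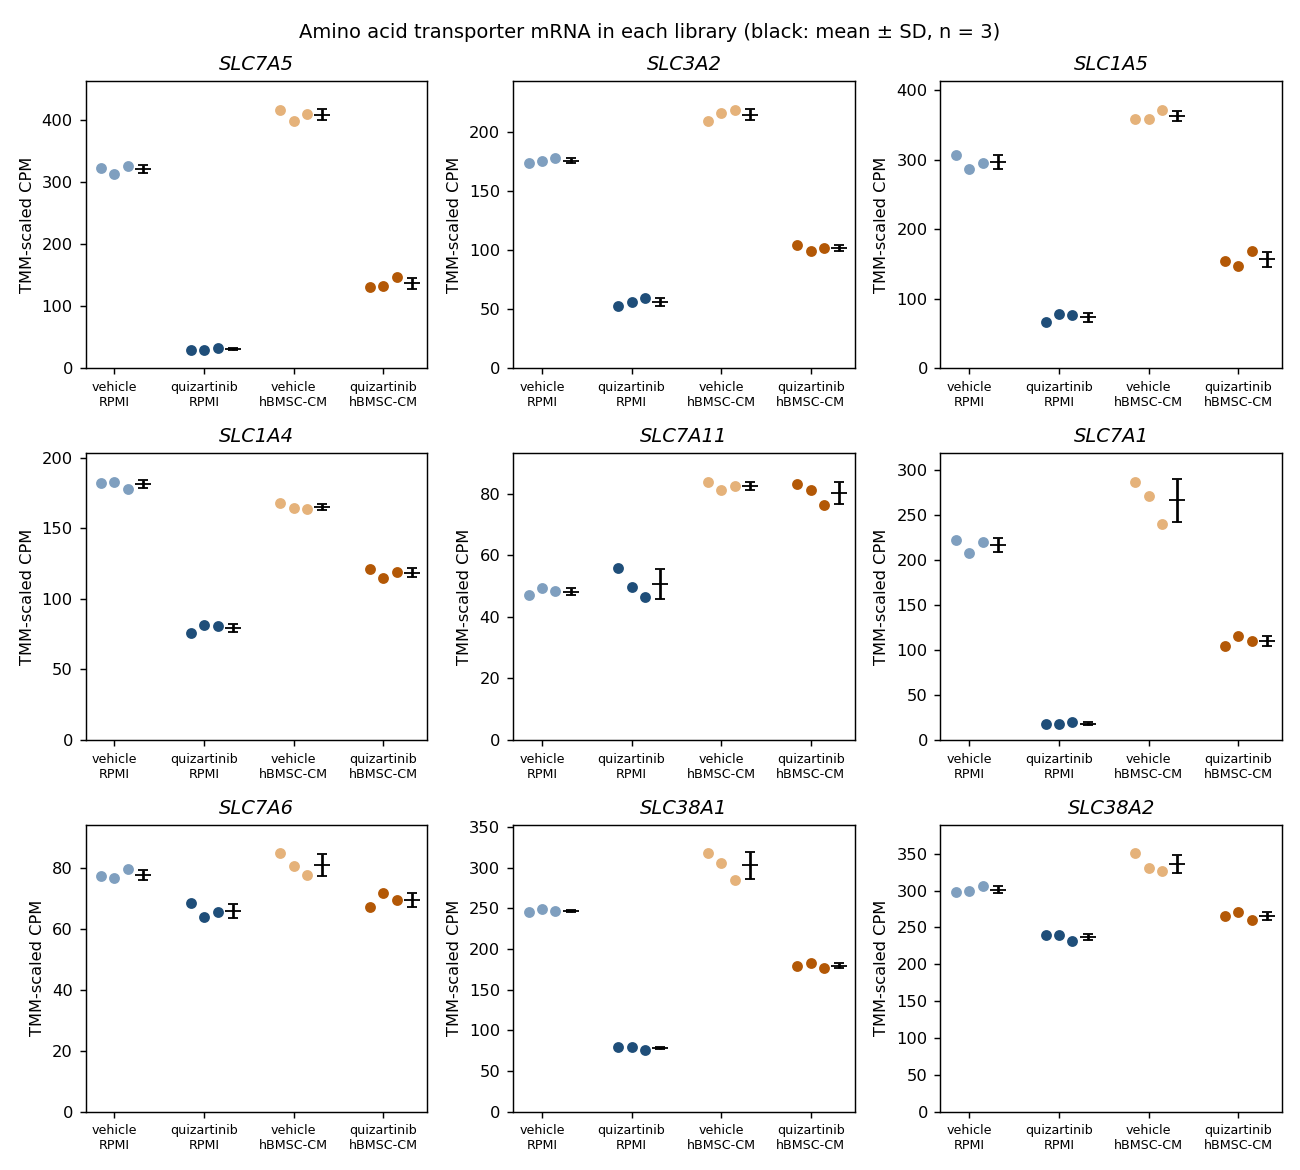
Each panel gives the TMM-scaled CPM of 1 transporter (y axis, from 0) in the 12 libraries, grouped on the x axis by treatment and medium; points are libraries and lines are group means with the SD. SLC7A5 and SLC7A1 have the deepest trough with quizartinib in RPMI, at 30.5 and 18.1 CPM on average, while SLC7A11 lies near 50 CPM in both RPMI groups and near 80 CPM in both hBMSC-CM groups.

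The start regions of 4 genes are shown because they span the range of responses: SLC7A5 and SLC7A1 fell the most, SLC1A4 fell less and SLC38A2 least among these. Each is 150 bases long, ends at the first transcribed base of the MANE Select transcript, and is taken from RefSeq (GRCh38.p14), 5′ to 3′ on the gene's strand. Capitals mark matches, on either strand and wholly within the stretch, to any of 3 patterns. These are the E-box CACGTG, bound by MYC among others, the core TGATGNAA of the CARE element bound by ATF4, and the core TGACNNNGC of the antioxidant element bound by NFE2L2.
SLC7A5, chr16:87869507-87869656, minus strand: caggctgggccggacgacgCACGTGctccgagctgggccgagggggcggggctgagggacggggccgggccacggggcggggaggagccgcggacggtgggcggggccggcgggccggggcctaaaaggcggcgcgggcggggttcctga
SLC7A1, chr13:29595688-29595837, minus strand: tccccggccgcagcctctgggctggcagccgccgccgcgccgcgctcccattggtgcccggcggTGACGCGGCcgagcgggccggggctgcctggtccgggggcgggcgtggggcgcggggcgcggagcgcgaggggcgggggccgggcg
SLC1A4, chr2:64989250-64989399, plus strand: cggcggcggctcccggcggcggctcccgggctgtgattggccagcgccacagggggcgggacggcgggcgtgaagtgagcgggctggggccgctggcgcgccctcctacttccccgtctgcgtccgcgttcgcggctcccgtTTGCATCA
SLC38A2, chr12:46372773-46372922, minus strand: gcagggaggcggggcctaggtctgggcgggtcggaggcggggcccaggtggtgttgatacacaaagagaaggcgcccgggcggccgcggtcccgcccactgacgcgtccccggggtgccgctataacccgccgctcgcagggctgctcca
In the 300 bases around the start (250 before, 50 from it on), the E-box was found in 7.26%, the CARE core in 3.62% and the antioxidant core in 13.35% of 35116 RefSeq promoters. With the first transcribed base at position 0, SLC7A5 held an E-box from position -130 and an antioxidant core from -2. That core runs past the end of the printed stretch and is not in capitals. SLC7A1 held an antioxidant core from -85 and a CARE core from 7, outside the printed stretch. The CARE core of SLC1A4 ran from -7 to the first transcribed base. Of the other genes, SLC7A6 held 2 antioxidant cores (from -197 and -29), and SLC3A2, SLC1A5 and SLC38A2 held no match at this start. At other RefSeq starts, SLC3A2 held a CARE core (from 37) and an antioxidant core (from -37), and SLC1A5 an E-box (from -50), an antioxidant core (from -111) and a CARE core (from -97). SLC38A1 has a RefSeq entry only at other starts, 1 of which held a CARE core, and SLC7A11 has none. A match is a description of letters and not a site of binding. In GENCODE v44 (GRCh38), SLC7A5 spans chr16:87830023-87869507 and SLC7A1 chr13:29509414-29595688, both on the minus strand, while SLC1A4 spans chr2:64988477-65023865 on the plus strand and SLC38A2 chr12:46358188-46372773 on the minus strand. The heavy chain SLC3A2 lies at chr11:62856004-62888880 on the plus strand and SLC1A5 at chr19:46774883-46788594 on the minus strand. The remaining genes are SLC7A11 (chr4:138164097-138242349, minus), SLC7A6 (chr16:68264516-68301823, plus) and SLC38A1 (chr12:46183063-46270017, minus).

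In hBMSC-CM, quizartinib lowered the same 8 genes, each called in its own right, against 33.7% of all genes called lower, 33.4% higher and 67.1% in either direction. All drug libraries lay below all vehicle libraries for these 8 genes, and so they did for 34.4% of all genes. The median log2 fold change of the 9 was -0.76, against 0.01 for all genes. SLC7A5 held 417, 399 and 410.2 CPM with vehicle and 131, 133 and 146 CPM with the drug, 2.99-fold lower (log2 fold change -1.58, SE 0.0476, adjusted p = 2.60e-16). The drug-treated cells in this medium thus kept a level that no drug-treated library in RPMI reached. SLC7A1 went from 287, 271 and 240.1 CPM to 105, 115 and 110.0 CPM, 2.42-fold lower (log2 fold change -1.27, adjusted p = 1.13e-13). Vehicle replicates of SLC7A1 spread more here, with an SD of 23.7 CPM, than in RPMI, with an SD of 7.96 CPM.

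SLC1A5 had 359, 359 and 372 CPM with vehicle and 154, 147 and 168 CPM with quizartinib (log2 fold change -1.21, adjusted p = 1.20e-13). The heavy chain SLC3A2 had 209.8, 216 and 219 CPM against 104, 99.3 and 102 CPM (log2 fold change -1.08, adjusted p = 2.24e-14). Both were more than 2-fold lower without overlap. SLC38A1 went from 318, 306 and 285 CPM to 179, 183 and 176 CPM (log2 fold change -0.76, adjusted p = 2.53e-12). For SLC1A4 the levels were 168, 164 and 164 CPM with vehicle and 121, 115 and 119 CPM with quizartinib (log2 fold change -0.48, adjusted p = 1.53e-09). The smallest called falls were those of SLC38A2, at -0.34 (adjusted p = 2.32e-07), and SLC7A6, at -0.22 (adjusted p = 0.000238); for SLC7A6 the value was -0.12 when only library size was used for scaling. SLC7A11 had 83.9, 81.4 and 82.6 CPM with vehicle and 83.2, 81.3 and 76.4 CPM with the drug, overlapping groups with a log2 fold change of -0.04 (95% interval -0.15 to 0.07, adjusted p = 0.52).

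The drug effect differed between the media for 6 of the 9 genes, all with a smaller fall in hBMSC-CM, as tested by the interaction term. Over all genes 45.2% were called for this term, 26.1% in the positive and 19.2% in the negative direction. The term was 2.31 for SLC7A1 (SE 0.0893, adjusted p = 2.88e-14) and 1.82 for SLC7A5 (SE 0.0702, adjusted p = 2.88e-14) on the log2 scale, higher than for 99.7% and 99.0% of all genes. SLC38A1 followed at 0.90 (SE 0.0604, adjusted p = 1.09e-10), SLC1A5 at 0.81 (SE 0.0792, adjusted p = 3.93e-08), SLC1A4 at 0.71 (SE 0.0574, adjusted p = 2.04e-09) and SLC3A2 at 0.57 (SE 0.0629, adjusted p = 2.23e-07). The remaining 3 were not called, with 95% intervals of the difference of -0.12 to 0.15 for SLC7A6, -0.11 to 0.12 for SLC38A2 and -0.28 to 0.05 for SLC7A11.

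When the log2 change with quizartinib in hBMSC-CM was divided by the one in RPMI, SLC7A1 kept 0.356 of its fall (SE 0.0176), SLC1A4 0.403 (SE 0.0367), SLC38A1 0.456 (SE 0.0281) and SLC7A5 0.465 (SE 0.0158). SLC1A5 kept 0.600 (SE 0.0324) and the heavy chain 0.654 (SE 0.0323). SLC38A2 kept 0.983 and SLC7A6 0.939, with wider errors of 0.163 and 0.266. The median over the 8 genes called lower in RPMI was 0.533, and over all 5096 genes called lower there it was 0.493, so the group as a whole lay close to the transcriptome.

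**Figure D2:**
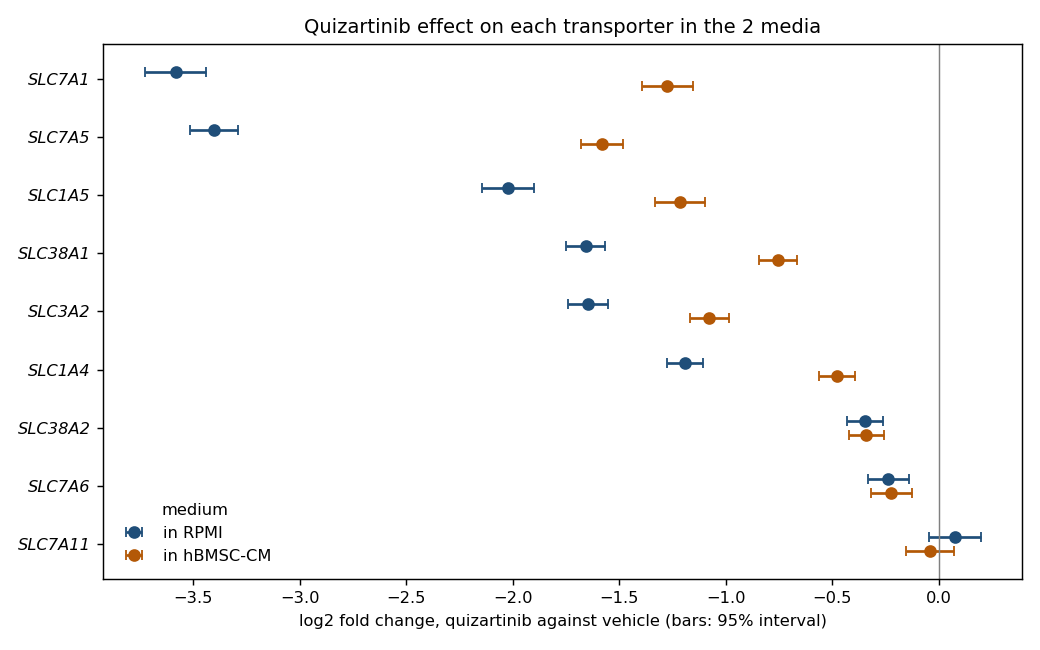
The x axis is the log2 fold change of quizartinib against vehicle, with points for the estimate in RPMI (blue) and hBMSC-CM (orange) and bars for the 95% interval; the y axis lists the 9 genes. The estimates are far apart for SLC7A1 (-3.58 and -1.27) and SLC7A5 (-3.40 and -1.58) and lie on each other for SLC38A2 and SLC7A6.

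The medium was then compared directly within each treatment. With quizartinib, hBMSC-CM raised 8 of the 9 genes over RPMI, against 35.5% of all genes higher, 34.3% lower and 69.8% called in either direction. The differences were 2.61 for SLC7A1 (adjusted p = 1.21e-17), 2.17 for SLC7A5 (adjusted p = 4.44e-18), 1.20 for SLC38A1 (adjusted p = 1.41e-15) and 1.10 for SLC1A5 (adjusted p = 5.17e-13) on the log2 scale. SLC3A2 was 0.86 higher (adjusted p = 7.29e-13), SLC7A11 0.66 higher (adjusted p = 1.20e-09), SLC1A4 0.58 higher (adjusted p = 8.70e-11) and SLC38A2 0.16 higher (adjusted p = 0.00121). SLC7A6 differed by 0.08 (95% interval -0.02 to 0.17, adjusted p = 0.156) and was called higher when no genes were filtered (0.15, adjusted p = 0.0201) or with edgeR's own filter (0.11, adjusted p = 0.0381).

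With vehicle the medium made a smaller difference, with 7 genes higher and 1 lower in hBMSC-CM against 16.6% of all genes higher, 15.5% lower and 32.1% called. SLC7A11 stood first, at 0.78 on the log2 scale (48.2 ± 1.10 CPM in RPMI and 82.6 ± 1.29 CPM in hBMSC-CM, SD, n = 3; adjusted p = 1.28e-09). It was the only one of the 9 whose largest called difference was between media and not between treatments. SLC7A5 was 0.35 higher (adjusted p = 7.12e-06), SLC7A1 0.30 (adjusted p = 0.000383), SLC38A1 0.30 (adjusted p = 1.61e-05), SLC3A2 0.29 (adjusted p = 2.78e-05), SLC1A5 0.29 (adjusted p = 0.000309) and SLC38A2 0.16 higher (adjusted p = 0.00473). SLC1A4 was 0.13 lower (adjusted p = 0.0142), a call that was lost without replicate 1 of vehicle in RPMI (adjusted p = 0.0586), without replicate 2 of vehicle in hBMSC-CM (adjusted p = 0.0576) and with no filter on low counts (adjusted p = 0.0706). SLC7A6 was not called, at 0.06 (95% interval -0.04 to 0.16, adjusted p = 0.331).

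Cells given both quizartinib and hBMSC-CM did not return to the levels of untreated cells in RPMI. Compared with vehicle in RPMI, which is also the control of the RPMI comparison above, 8 genes were lower and SLC7A11 was higher, against 31.6% of all genes lower, 30.6% higher and 62.1% called. SLC7A5 was 1.23 lower on the log2 scale (adjusted p = 5.61e-15), SLC7A1 0.98 lower (adjusted p = 6.22e-12), SLC1A5 0.92 lower (adjusted p = 7.67e-12) and SLC3A2 0.79 lower (adjusted p = 2.20e-12). SLC1A4 was 0.61 lower (adjusted p = 3.32e-11), SLC38A1 0.46 lower (adjusted p = 6.11e-09), SLC38A2 0.18 lower (adjusted p = 0.000504) and SLC7A6 0.16 lower (adjusted p = 0.00431). With library size only, SLC38A2 was 0.10 lower and SLC7A6 0.08 lower, and the call for SLC7A6 was lost (adjusted p = 0.170). SLC7A11 was 0.74 higher (adjusted p = 3.46e-10).

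Levels of different genes can be set side by side only per length, here as CPM per kb of the longest coding transcript. In vehicle cells in RPMI the order began with SLC1A5 (103 ± 3.62 CPM per kb, SD, n = 3), SLC3A2 (75.3 ± 0.881), SLC7A5 (70.5 ± 1.43) and SLC38A2 (62.9 ± 0.934), and ended with SLC7A6 (12.4 ± 0.255) and SLC7A11 (4.99 ± 0.114). Between them stood SLC1A4 (39.7 ± 0.593), SLC38A1 (30.5 ± 0.197) and SLC7A1 (29.5 ± 1.08), of which the last pair lay within about 1 SD. With quizartinib in RPMI, SLC38A2 came first at 49.4 ± 0.936 and made up 32.8% of the summed level of the 9 genes, while SLC7A5 went from 16.4% to 4.44% of it and SLC7A1 came last at 2.47 ± 0.179. The pair SLC1A5 (25.3 ± 2.19) and SLC3A2 (24.1 ± 1.51) was not apart by more than its spread. With quizartinib in hBMSC-CM, SLC38A2 (55.4 ± 1.21) and SLC1A5 (54.3 ± 3.73) differed by less than their spread, SLC3A2 followed at 43.6 ± 1.03, and SLC7A5 stood at 30.0 ± 1.82, or 11.3% of the sum. With vehicle in hBMSC-CM the order began as in RPMI, with SLC1A5 at 126 ± 2.57, SLC3A2 at 92.1 ± 2.07 and SLC7A5 at 89.7 ± 1.97, the last pair within about 1 SD.

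Several places in the order depend on the length used. The longest coding transcript of SLC3A2 has 2334 bases and the union of its exons 6392. With the union length SLC3A2 moved from rank 2 to rank 5 in vehicle cells in RPMI, while SLC7A1 moved from rank 7 to rank 4. With quizartinib in hBMSC-CM the union length put SLC1A5 (47.0 ± 3.22) above SLC38A2 (40.8 ± 0.891). Counts of the 9 genes together made up 0.181% of all counts with vehicle in RPMI, 0.0711% with quizartinib in RPMI, 0.213% with vehicle in hBMSC-CM and 0.126% with quizartinib in hBMSC-CM.

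**Figure D3:**
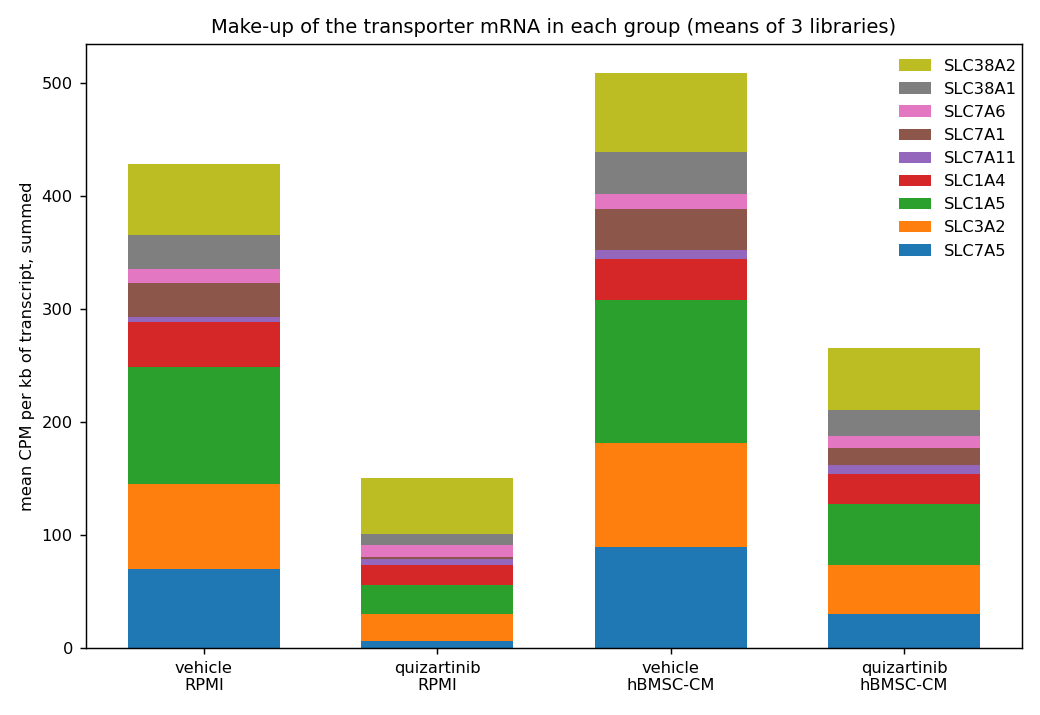
Stacked bars give, for each of the 4 groups (x axis), the mean level of the 9 genes in CPM per kb of the longest coding transcript, summed (y axis, from 0), with 1 colour for each gene and means over 3 libraries. SLC1A5 is the thickest layer in both vehicle groups (103 and 126), and SLC38A2 is the thickest with quizartinib in RPMI (49.4), where the SLC7A5 layer is down to 6.69.

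Because SLC7A5, SLC7A6 and SLC7A11 all pair with SLC3A2, their levels per kb were divided by that of the heavy chain in each library. For SLC7A5 the ratio was 0.935 ± 0.0181 with vehicle in RPMI and 0.278 ± 0.00507 with quizartinib, and 0.974 ± 0.0384 and 0.688 ± 0.0440 in hBMSC-CM (SD, n = 3). The drug thus lowered the SLC7A5 transcript more than that of its partner in both media, and the quizartinib libraries did not overlap the vehicle libraries in either. The SLC7A6 ratio was higher with the drug, going from 0.164 ± 0.00224 to 0.436 ± 0.0388 in RPMI and from 0.140 ± 0.00937 to 0.253 ± 0.0147 in hBMSC-CM. For SLC7A11 it went from 0.0663 ± 0.00133 to 0.219 ± 0.0347 in RPMI and from 0.0930 ± 0.00330 to 0.191 ± 0.00884 in hBMSC-CM. The heavy chain, the divisor of these ratios, was itself lower with the drug, while the level of SLC7A6 fell little and that of SLC7A11 was not called. Of the summed level of these 3 light chains (SLC7A7, another partner of SLC3A2, is not among the 9 genes), SLC7A5 made up 80.2% ± 0.270 with vehicle in RPMI, 29.9% ± 2.16 with quizartinib in RPMI, 80.7% ± 0.394 with vehicle in hBMSC-CM and 60.7% ± 1.84 with quizartinib in hBMSC-CM. The ratios change in size with the length used, at 2.45 for SLC7A5 with vehicle in RPMI by union length, but all libraries change by the same factor. They are ratios of mRNA, and protein, surface complexes and uptake were not measured here. The paper reports that quizartinib reduced protein translation in RPMI and that hBMSC-CM limited this reduction.

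**Figure D4:**
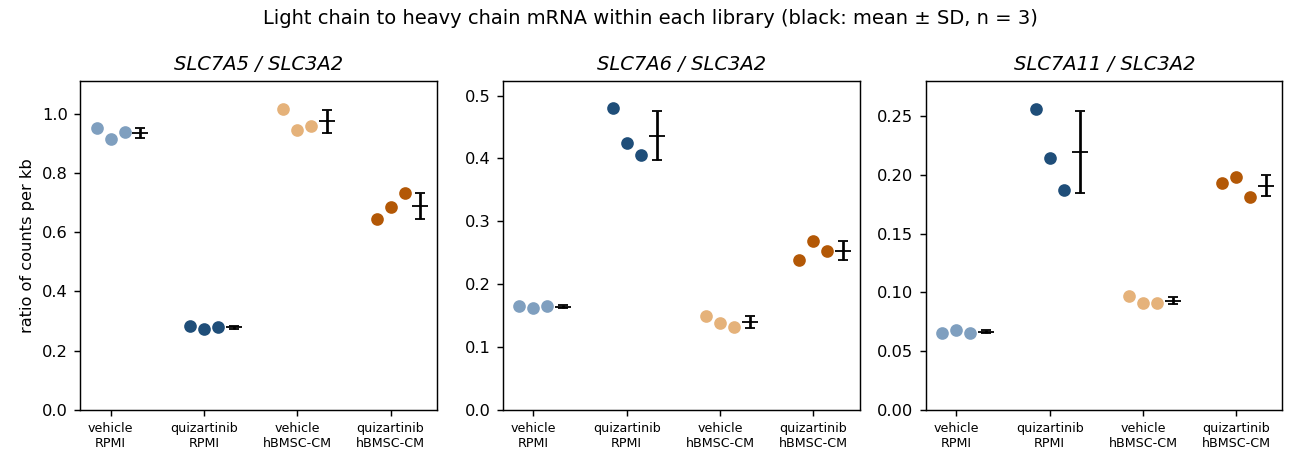
Each panel plots the ratio of 1 light chain to SLC3A2, both in CPM per kb (y axis, from 0), for the 12 libraries by group (x axis); points are libraries and lines are means with the SD. The SLC7A5 ratio drops from 0.935 to 0.278 with quizartinib in RPMI, and the SLC7A6 ratio goes from 0.164 to 0.436.

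Of 30 other genes listed here as plasma membrane amino acid transporters, 13 passed the filter. Where in the cell each product lies and what it carries were not checked. In RPMI the drug raised 5 and lowered 7 of them, with 1 not called and a median log2 fold change of -0.47 (all genes 40.1% higher and 39.2% lower). SLC7A2, a cationic amino acid transporter like SLC7A1, fell by 2.51 on the log2 scale (SE 0.0562, adjusted p = 1.73e-19) and by 0.93 in hBMSC-CM (adjusted p = 5.40e-13), with an interaction of 1.58. SLC38A5, a glutamine transporter of the same family as SLC38A1, fell by 2.42 in RPMI (SE 0.0793, adjusted p = 6.74e-17) and by 1.06 in hBMSC-CM (adjusted p = 2.54e-11). SLC36A4 fell by 0.97 in RPMI (adjusted p = 1.24e-08). In the other direction, SLC43A2 (LAT4), a uniporter of large neutral amino acids that needs no SLC3A2, rose by 1.31 (SE 0.0520, adjusted p = 1.65e-15), and SLC7A7 by 0.73 (adjusted p = 2.10e-07) and SLC38A10 by 0.45 (adjusted p = 1.89e-07). In hBMSC-CM the counts were 3 higher, 8 lower and 2 not called, against 33.4% of all genes higher and 33.7% lower.

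Of the carriers of the lysosome and mitochondrion, 20 names were listed, 19 were in the count table and 16 were tested. In RPMI 7 were higher, 5 lower and 4 not called, near the shares of all genes there (40.1% higher, 39.2% lower). SLC15A4 (0.72), SLC25A29 (0.67) and CTNS, the cystine exporter of the lysosome (0.54), rose. SFXN1, a mitochondrial serine carrier, fell by 2.05 on the log2 scale, SLC25A15 by 1.91 and SLC25A22, a mitochondrial glutamate carrier, by 1.56. Among 16 tested enzymes of amino acid use (18 listed), 14 fell, 1 rose and 1 was not called in RPMI, against 39.2% of all genes lower and 40.1% higher. The counts were the same in hBMSC-CM, against 33.7% of all genes lower and 33.4% higher. GPT2 fell by 2.45, BCAT1, which begins the breakdown of branched-chain amino acids, by 1.34, and LARS, the leucyl-tRNA synthetase, by 1.30 in RPMI, while GLUL, the glutamine synthetase, rose by 0.63.

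**Figure D5:**
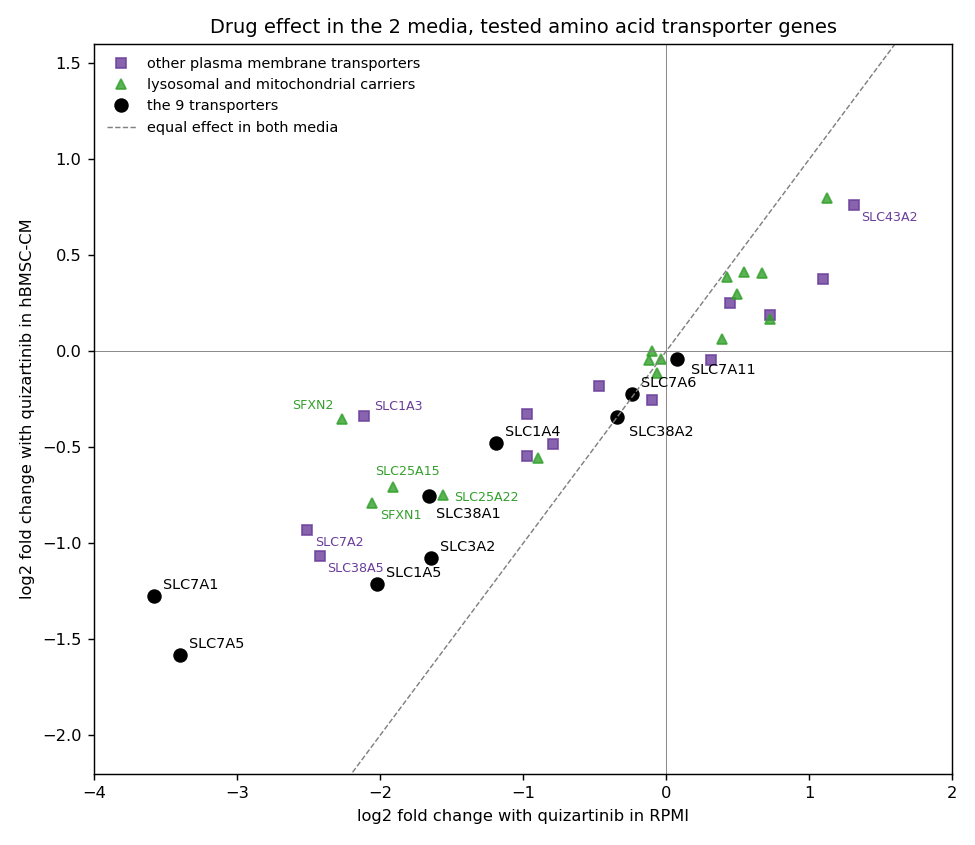
Points are tested genes of the transporter lists, with the log2 fold change of quizartinib in RPMI on the x axis and in hBMSC-CM on the y axis. Circles are the 9 genes, squares other genes listed as plasma membrane transporters, and triangles lysosomal and mitochondrial carriers. The dashed line marks an equal effect. SLC7A1 and SLC7A5 lie farthest left, at -3.58 and -3.40, and most genes that fell in RPMI lie above the line.

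Of 9 genes listed here as regulators, 8 were tested, and in RPMI 4 rose, 3 fell and 1 was not called. In hBMSC-CM 1 rose, 4 fell and 3 were not called. What each of them regulates was not checked. Of all genes 40.1% were higher and 39.2% lower in RPMI, and 33.4% higher and 33.7% lower in hBMSC-CM. ATF4, which activates transporter genes when amino acids are short, fell by 0.42 in RPMI (adjusted p = 2.97e-08) and by 0.77 in hBMSC-CM (adjusted p = 6.71e-12), with an interaction of -0.35 (adjusted p = 0.000147). TRIB3, an ATF4 target, fell by 1.95 in RPMI and by 1.41 in hBMSC-CM. DDIT3, another gene of the stress response, rose by 0.27 in RPMI (adjusted p = 0.0155) and was not called in hBMSC-CM, at -0.07 (adjusted p = 0.525). SESN2 was not called in RPMI, at -0.11 (adjusted p = 0.104), and fell by 0.61 in hBMSC-CM (adjusted p = 6.20e-08). NFE2L2, the activator of SLC7A11 under oxidative stress, rose by 0.38 in RPMI (adjusted p = 7.61e-07) and was not called in hBMSC-CM, at 0.04 (adjusted p = 0.503). EIF2AK4 rose by 0.49 in RPMI (adjusted p = 2.22e-08) and by 0.25 in hBMSC-CM (adjusted p = 0.00028). SLC38A9, which is also counted among the lysosomal and mitochondrial carriers, rose by 0.39 in RPMI (adjusted p = 8.36e-06). It was not called in hBMSC-CM, at 0.06 (adjusted p = 0.384). CASTOR1 did not pass the filter. MYC had a log2 fold change of -3.09 in RPMI (adjusted p = 3.09e-21) and of -0.40 in hBMSC-CM (adjusted p = 8.41e-08). Its interaction was 2.68 (adjusted p = 8.58e-17), a larger value than for any of the 9 genes. With quizartinib in hBMSC-CM, MYC was 0.47 higher than with vehicle in RPMI (adjusted p = 1.16e-08). Whether MYC or any other of these regulators acts on the 9 genes was not tested.

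Likeness between genes was measured as the root mean square difference of log2 CPM over the 12 libraries after centring each gene, among 9279 genes. These libraries share only 4 group means, so the values are a description. Within the 9 genes, SLC7A6 and SLC38A2 were closest (0.0792), then SLC3A2 and SLC38A1 (0.159), SLC3A2 and SLC1A5 (0.165), and SLC7A5 and SLC7A1 (0.173). Outside them, CDC25A, a phosphatase of the cell cycle, was the gene closest to both SLC7A5 (0.112, r = 0.997) and SLC7A1 (0.140, r = 0.996). The nearest gene was RBM38 for SLC3A2 (0.0620), PFAS for SLC1A5 (0.0951), MCMBP for SLC1A4 (0.0655) and SELENOI for SLC38A1 (0.0419). SLC7A6 had PAK1 (0.0395), SLC38A2 had DERL1 (0.0329) and SLC7A11 had STOX2 (0.0944) as the nearest gene.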

How the data were processed

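The 12 libraries were assigned to the 4 groups from their labels. The authors prepared poly-A RNA libraries, trimmed paired reads with BBDuk, aligned them to the human genome (hg38) with STAR v2.6.0a, mapped identifiers to gene names and deposited raw counts per gene, which are whole numbers with no normalization. Such counts do not allow reads shared by overlapping genes or close copies to be reassigned. The total count per library sets the depth.

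From the counts, genes were kept if both their mean count and their mean CPM reached 1, scaled by TMM and tested with edgeR 4.0.16 in R 4.3.3 (glmQLFit, glmQLFTest), in 1 model with 4 group means and 8 residual degrees of freedom before moderation. The study used limma; edgeR was chosen because the values are counts. Two-sided p-values were adjusted by Benjamini-Hochberg over all genes tested in each contrast, at a threshold of 0.05. The 6 contrasts were the drug in each medium, the medium with each treatment, quizartinib in hBMSC-CM against vehicle in RPMI, and the interaction. On simulated data for quizartinib against vehicle in RPMI (12998 genes), 37 of 50 genes changed 1.25-fold and all 50 changed 2-fold were recovered. Lengths and coordinates came from GENCODE v44 and promoters from RefSeq.

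All 9 genes were named, and from each further list the 3 largest increases and 3 largest decreases in RPMI among called genes with non-overlapping groups and a mean CPM of at least 10; regulators and closest genes were named by list. The members and lists were chosen with earlier results of these data known. Alternatives were DESeq2 1.42.0, limma-voom (limma 3.58.1), other scalings and filters, a replicate block, the groups of a contrast alone and each library left out. Leaving out both replicate 1 libraries in hBMSC-CM was chosen after seeing the data.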

Additional observations from a re-analysis of the deposited data

Results flagged for a closer look

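The effect of quizartinib differed between RPMI and hBMSC-CM for 6 genes, by the interaction term in edgeR (quasi-likelihood, Benjamini-Hochberg). The log2 difference was 1.82 for SLC7A5, 0.57 for SLC3A2, 0.81 for SLC1A5, 0.71 for SLC1A4, 2.31 for SLC7A1 and 0.90 for SLC38A1, each with a smaller fall in hBMSC-CM. Over all genes 45.2% were called for this term, 26.1% in the positive direction. All libraries with quizartinib lay below all libraries with vehicle for these 6 genes in both media. The same held for 40.1% of all genes in RPMI and for 34.4% in hBMSC-CM.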

How the results depend on the processing

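Over 54 values of the 9 genes and up to 22 alternatives each, 1151 of 1179 results kept their direction and their side of the threshold, 19 changed sign, 5 gained a call and 4 lost one. Counts of genes called stayed between 8 and 9 for quizartinib in RPMI and 8 in hBMSC-CM, and the interaction count stayed at 6. The sign changes were in values near 0. For SLC7A11, quizartinib in RPMI gave -0.027 with no low-count filter, and in hBMSC-CM 0.0413 with upper-quartile factors and 0.0629 with library size only. The interaction was -0.00458 for SLC7A6 and -0.0131 for SLC38A2 with upper-quartile factors, and for SLC38A2 -0.00232 with DESeq2 size factors and -0.00292 with the DESeq2 test. Leaving out 1 library at a time gave interactions from -0.0193 to 0.0547 for SLC7A6 and from -0.0225 to 0.0422 for SLC38A2; without both replicate 1 libraries in hBMSC-CM, added after seeing the data, the SLC7A6 value was 0.0788. The median of all genes moved by 0.102 with upper-quartile factors and by -0.103 with no filter for quizartinib in RPMI, and by 0.104 with library size only in hBMSC-CM, where the share of calls that were higher went from 49.8% to 62.8%; apart from these scalings the cause of the sign changes was not tested.

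Replicate numbers did not pair the libraries: deviations of same-numbered libraries correlated between -0.227 and 0.0979 over 18 pairs, against -0.152 to 0.231 over 36 other pairs. With the replicate block the 9 genes had 8, 8, 8, 8, 9 and 6 calls in the 6 contrasts, as without it, and the fall of SLC7A5 in RPMI was -3.40. In the simulated data 37 of 50 genes at the smallest fold were recovered. Few genes were changed there, while 79.3% were called in the data. The adjusted threshold therefore differs, and this share need not hold for these libraries. The fall of SLC7A6 in RPMI was called in all 22 alternatives, while a change as small as that of SLC7A11 may still be missed.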
